A study of Rattus norvegicus with 12 samples.

Results

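Fos, Jun, Egr1 and Myc were followed in 12 RNA sequencing libraries of OC1 cells, a line labelled as sensory epithelial cells of the cochlea. The members were chosen by gene ID: ENSRNOG00000008015 for Fos, ENSRNOG00000026293 for Jun, ENSRNOG00000019422 for Egr1 and ENSRNOG00000004500 for Myc. These are 4 of the 23978 genes in the deposited table. All 4 passed the filter on low counts, which left 12731 genes to test.

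The cells had been transfected with siRNA 1928 against Bcl-2, with siRNA 1423 against Bcl-2, or with a control siRNA, and each group had 4 libraries, lettered A to D. The labels give the genotype as Bcl-2 knockdown for both targeting siRNAs and as WT for the control, and say nothing of separate cultures. A treatment tag speaks of a plasmid, but the sample descriptions and the protocol speak of siRNA. P-values therefore rest on the spread between these libraries, which may be technical. All 3 groups shared the line, the lipid transfection, medium with fetal bovine serum and collection with trypsin; the time from transfection to collection is not given in the sources used here. The organism is labelled rat, and whether OC1 is the mouse line of similar name, HEI-OC1, is not settled by these sources. No source used here pairs other gene IDs with symbols, so Bcl2, the targeted gene, and markers of the cochlear epithelium were not analysed here. Neither the labels nor the cell type was therefore checked against expression.

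Immediate early genes are transcribed within minutes of a stimulus such as serum or a growth factor, without new protein synthesis, and their mRNAs are short-lived. FOS and JUN pair to form AP-1, a transcription factor that binds DNA as a dimer, and EGR1 is a zinc finger transcription factor induced through the ERK pathway and serum response factor (SRF). MYC, also an early target of growth factor signalling, dimerizes with MAX and acts on genes of ribosome production, metabolism and cell growth. In bulk RNA, a change in the number of cells that express a gene and a change in RNA per cell cannot be told apart.

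Among the members, 1 of 4, Egr1, had an entry in the promoter table. The sequence upstream of its annotated start is therefore shown here, from RefSeq on build GRCr8. It covers chr18:26736828-26737077 on the plus strand, 250 bases that end just before the start. Capitals mark matches to the SRF CArG box and to the core of the cyclic AMP response element (CRE), CGTCA.

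Egr1 promoter: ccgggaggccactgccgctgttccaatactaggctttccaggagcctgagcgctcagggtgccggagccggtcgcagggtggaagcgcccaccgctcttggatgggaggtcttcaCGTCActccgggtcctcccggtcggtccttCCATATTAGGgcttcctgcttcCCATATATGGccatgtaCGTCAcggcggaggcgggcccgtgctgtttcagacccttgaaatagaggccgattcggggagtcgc

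Both strands were searched, and positions count back from the start, with -1 as the last base before it. The CArG box, the element that SRF binds, was found at -105 to -96 and again at -83 to -74. Of 33469 rat promoters cut to the same length, 1.5% held a CArG box and 7 promoters (0.0209%) held 2 or more. The CRE core stood at -135 to -131 and at -66 to -62, and 18.2% of all promoters held at least 1. The full CRE, TGACGTCA, which contains that core, had no match here and was found in 1.59% of promoters. The AP-1 site TGANTCA, the EGR site GCGNGGGCG and the E-box CACGTG, which MYC and MAX bind, had no match here and were found in 6.34%, 4.29% and 5.59% of promoters. A match of letters is a description of the rat reference and does not show that a factor was bound in these cells.

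Library totals ran from 15671546 to 23247593 expected counts, which are estimated reads per gene. The 4 genes rest on very different depths. Fos had 60 to 166 expected counts per library, Myc 340 to 726, Jun 1039 to 1742 and Egr1 1213 to 2453. Levels below are counts per 1000000 (CPM) scaled by trimmed means of M values (TMM), and they are compared between libraries for the same gene, never between genes, because they are not divided by gene length. Changes are log2 fold changes from edgeR's quasi-likelihood test with 1 fit over all 12 libraries. A gene is called at a Benjamini-Hochberg adjusted p under 0.05 over all tested genes.

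**Figure D1:**
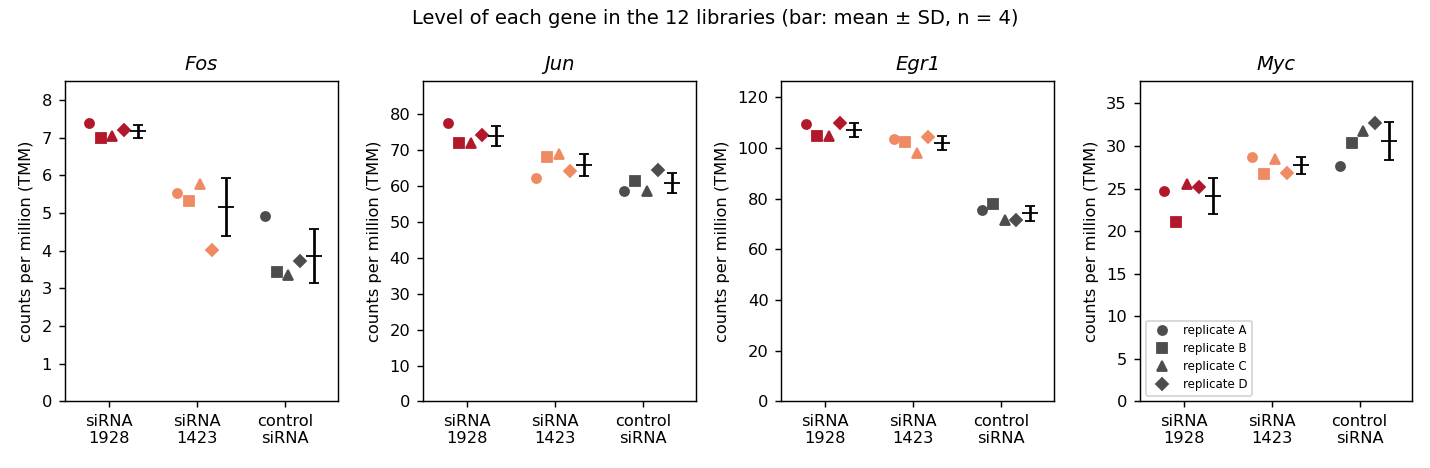
CPM (TMM, vertical axis from 0) of Fos, Jun, Egr1 and Myc in each library, by group, with symbols for replicates A to D and a bar for mean ± SD (n = 4). Fos and Jun are highest with siRNA 1928 and lowest with the control siRNA, Egr1 averages 107 CPM with siRNA 1928 and 102 CPM with siRNA 1423, both above 74.2 CPM with the control siRNA, and Myc runs the other way.

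With siRNA 1928, Fos, Jun and Egr1 rose against the control siRNA and Myc fell. Fos rose by 0.89 on the log2 scale (1.85-fold), Egr1 by 0.53 (1.45-fold) and Jun by 0.29 (1.22-fold), while Myc fell by 0.33, to 0.793 of its control level. Thus 3 of 4 members were called higher, against 21.8% of all tested genes, and 1 of 4 lower, against 23.3%. In all 4 genes every library of siRNA 1928 lay on one side of every control library, a separation seen in 39.4% of tested genes. With siRNA 1928 changing 45.2% of the tested genes, the calls alone do not set these members apart. Their median log2 fold change was 0.41, beside 0.0034 over all tested genes, a median that the scaling holds near 0. In absolute terms the median was 0.43 over the 4 members, beside 0.15 over all tested genes and 0.25 over the called genes. Since the members were chosen with earlier results of these data known, these medians are a description and not a test.

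Fos, which encodes the AP-1 subunit that needs a JUN partner to bind DNA, was at 7.40, 7.00, 7.06 and 7.21 CPM in replicates A to D of siRNA 1928, against 4.92, 3.43, 3.36 and 3.72 CPM in replicates A to D of the control. The 4 libraries of siRNA 1928 were close together and the control group was led by replicate A, with no overlap between the groups. The means were 7.17 ± 0.178 CPM with siRNA 1928 and 3.86 ± 0.727 CPM in the control (SD, n = 4 each), and edgeR gave an SE of 0.131 and an adjusted p of 9.47e-06. Its 95% interval ran from 1.53-fold to 2.23-fold. Only 1.96% of tested genes had a larger absolute log2 fold change in this comparison. Fos also had the least certain value of the 4, with an SE above the median of 0.0571 over all tested genes. Counting error alone, at 113 to 166 expected counts, corresponds to a coefficient of variation of 8.4% per library with siRNA 1928, more than the 2.49% seen between its libraries, so the narrow spread there understates the error of a library.

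Jun, the AP-1 subunit that can also pair with itself, was at 77.6, 71.9, 71.9 and 74.3 CPM in replicates A to D of siRNA 1928, against 58.7, 61.4, 58.6 and 64.6 CPM in those of the control. No library of siRNA 1928 was as low as the highest control library. The means were 73.9 ± 2.71 CPM with siRNA 1928 and 60.8 ± 2.80 CPM in the control (SD, n = 4 each; SE of the log2 fold change 0.0427, edgeR adjusted p = 1.06e-05). This was the smallest rise of the 3 genes that rose, and 24.2% of tested genes changed further in either direction.

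Egr1 was at 109, 105, 105 and 110 CPM in replicates A to D of siRNA 1928, against 75.7, 77.9, 71.5 and 71.7 CPM in those of the control. The groups were far apart for their spread, at 107 ± 2.87 CPM with siRNA 1928 and 74.2 ± 3.13 CPM in the control (SD, n = 4 each). Egr1 was the most precisely measured rise, with an SE of 0.0362, an edgeR adjusted p of 6.17e-11 and a 95% interval from 1.37-fold to 1.52-fold.

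Myc was at 24.8, 21.1, 25.5 and 25.2 CPM in replicates A to D of siRNA 1928, against 27.6, 30.4, 31.7 and 32.7 CPM in those of the control. Replicate B stood lowest with siRNA 1928 and replicate A lowest in the control, and the groups did not overlap. The means were 24.1 ± 2.07 CPM with siRNA 1928 and 30.6 ± 2.22 CPM in the control (SD, n = 4 each; SE of the log2 fold change 0.0639, edgeR adjusted p = 0.000187). The 95% interval of the fall ran from 0.723 to 0.869 of the control level. The direction and call of all 4 genes in this comparison were the same in all 20 alternatives tried, which include leaving out each of the 12 libraries in turn. Leaving out a library of siRNA 1423, a group outside this comparison, hardly moved the values (0.8846 to 0.8856 for Fos).

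**Figure D2:**
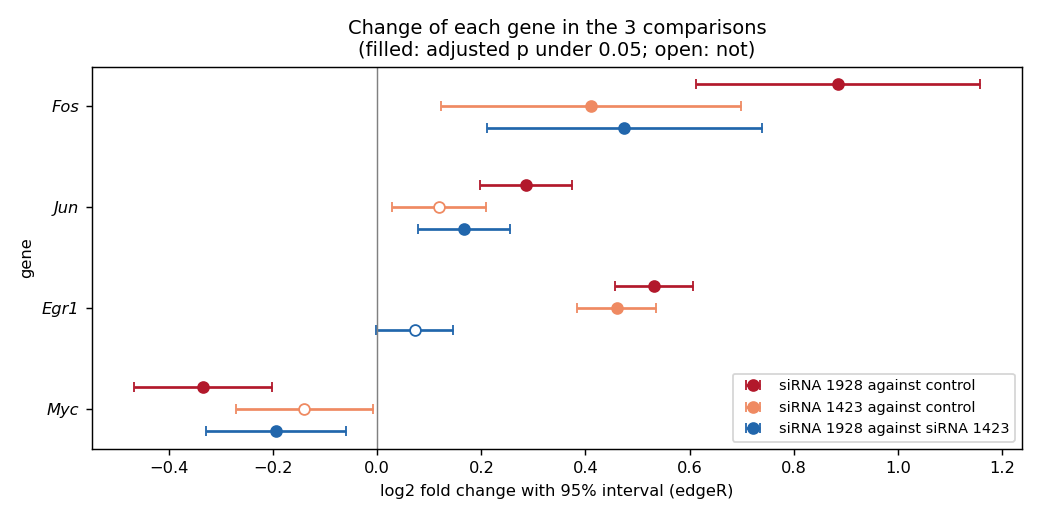
Log2 fold change of each gene (horizontal axis) with its 95% interval in the 3 comparisons, filled where the edgeR adjusted p was under 0.05 and open where it was not. Fos has the highest value with siRNA 1928 (0.89), Egr1 the highest with siRNA 1423 (0.46), and Myc lies below 0 in each comparison.

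With siRNA 1423, Egr1 and Fos rose against the control, while Jun and Myc did not pass the test. Egr1 rose by 0.46 on the log2 scale (1.38-fold) and Fos by 0.41 (1.33-fold). The values of the others were 0.12 for Jun and -0.14 for Myc. Of 4 members, 2 were called higher, against 11.3% of tested genes, and 0 were called lower by edgeR or by DESeq2, against 11.5% by edgeR. In either direction 22.8% of tested genes were called. The unadjusted edgeR p-values of the 2 genes not called were 0.0122 for Jun and 0.0387 for Myc. The share of all tested genes that reach such unadjusted values was not counted here. Libraries of siRNA 1423 and control were fully separated for 1 of 4 members, Egr1, and for 23.7% of tested genes. This comparison shares its control libraries with that of siRNA 1928, so the directions of the 2 comparisons are not independent.

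Egr1 was at 103, 102, 98.1 and 104 CPM in replicates A to D of siRNA 1423, against 75.7, 77.9, 71.5 and 71.7 CPM in those of the control. The lowest library of siRNA 1423 was well above the highest control library. The mean with siRNA 1423 was 102 ± 2.75 CPM (SD, n = 4), with an SE of the log2 fold change of 0.0365 and an edgeR adjusted p of 5.55e-09. Only 4.63% of tested genes had a larger absolute log2 fold change with siRNA 1423, and the call for Egr1 was the same in all 20 alternatives.

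Fos was at 5.52, 5.31, 5.76 and 4.02 CPM in replicates A to D of siRNA 1423, against 4.92, 3.43, 3.36 and 3.72 CPM in those of the control. Replicate D of siRNA 1423 lay below replicate A of the control, so the groups overlapped. The mean was 5.16 ± 0.777 CPM with siRNA 1423 (SD, n = 4), and the rise passed the test narrowly (SE 0.139, edgeR adjusted p = 0.0365). The call was lost in 8 of 20 alternatives, 6 of them leaving out 1 library each: replicate A (log2 fold change 0.38), B (0.40) or C (0.35) of siRNA 1423, or replicate B (0.36), C (0.34) or D (0.39) of the control. Among the libraries of this comparison, the call was kept only without replicate D of siRNA 1423 (0.51) or replicate A of the control (0.56). Leaving out a library of siRNA 1928, a group outside this comparison, left the value at 0.41. Over the 20 alternatives the adjusted p ran from 0.00529 to 0.254, with the direction unchanged.

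Jun was at 62.4, 68.0, 68.9 and 64.2 CPM in replicates A to D of siRNA 1423, against 58.7, 61.4, 58.6 and 64.6 CPM in those of the control. Replicates A and D of siRNA 1423 lay below replicate D of the control. The mean was 65.9 ± 3.13 CPM with siRNA 1423 (SD, n = 4), and the log2 fold change of 0.12 (SE 0.0435, edgeR adjusted p = 0.0525) had a 95% interval from 0.03 to 0.21. It stood at the border of the test and passed it in 6 of 20 alternatives, 3 of which leave out 1 library: replicate A of siRNA 1928 (0.12), replicate A of siRNA 1423 (0.14) or replicate D of the control (0.15). The others change the scaling or add a term to the fit; with a term for replicates A and B against C and D the value was 0.12 (edgeR adjusted p = 0.0313).

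Myc was at 28.7, 26.8, 28.5 and 26.9 CPM in replicates A to D of siRNA 1423, against 27.6, 30.4, 31.7 and 32.7 CPM in those of the control. Replicates A and C of siRNA 1423 exceeded replicate A of the control. The mean was 27.7 ± 1.05 CPM with siRNA 1423 (SD, n = 4), and the 95% interval of the log2 fold change ran from -0.27 to -0.008 (SE 0.0635, edgeR adjusted p = 0.122). Without replicate A of the control the value was -0.19 and passed the test (adjusted p = 0.0344); the adjusted p ran from 0.0344 to 0.737 over the 20 alternatives. The value was -0.06 within replicates A and B (adjusted p = 0.737) and -0.22 within C and D (adjusted p = 0.0346).

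**Figure D3:**
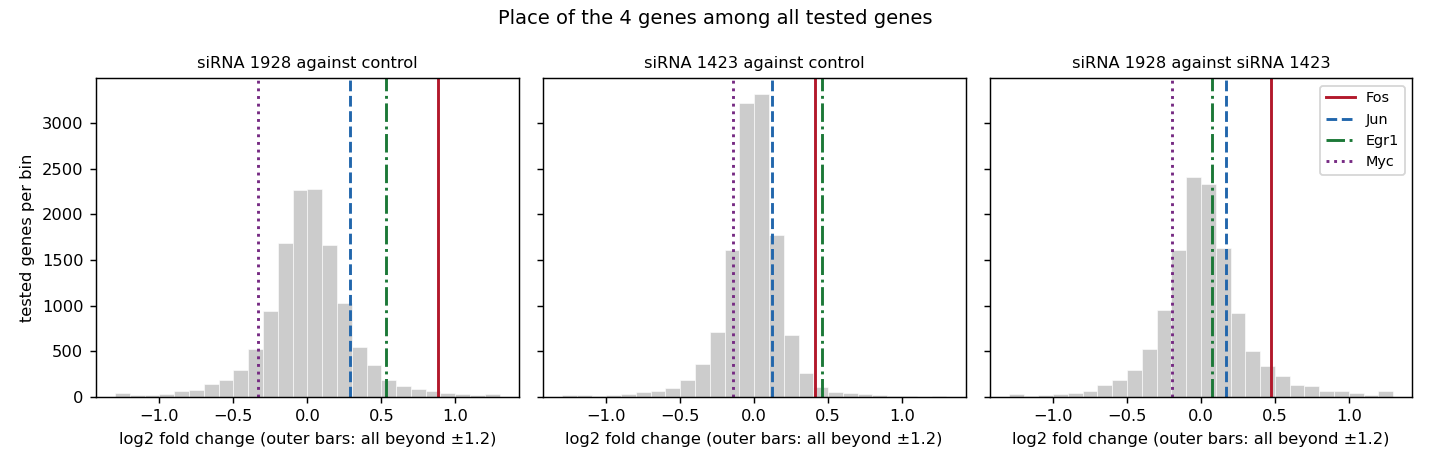
Number of tested genes (vertical axis) by log2 fold change (horizontal axis, in bins of 0.1, the outer bars holding all genes beyond 1.2 in either direction) in the 3 comparisons, with lines at the values of Fos, Jun, Egr1 and Myc. Fos and Egr1 lie in the right tail of both comparisons with control, and Myc lies left of the centre in all 3.

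The direct comparison of the siRNAs asked whether the genes differed between cells given different sequences against the same target. Fos and Jun were higher and Myc was lower with siRNA 1928 than with siRNA 1423, and Egr1 did not pass the test. The log2 differences were 0.47 for Fos (SE 0.127, edgeR adjusted p = 0.00427), 0.17 for Jun (SE 0.0427, adjusted p = 0.00301) and -0.19 for Myc (SE 0.0651, adjusted p = 0.0188). Called higher were 2 of 4 members, against 21.3% of tested genes, and called lower 1 of 4, against 23.0%, with 44.3% called in either direction. In all 4 genes, the libraries of siRNA 1928 did not overlap those of siRNA 1423, which held for 39.9% of tested genes. For Egr1 the groups nearly touched, at 104.7 CPM in replicate B of siRNA 1928 and 104.3 CPM in replicate D of siRNA 1423. The difference for Egr1 was 0.07 (SE 0.0354, adjusted p = 0.108), with a 95% interval from -0.002 to 0.15, so a difference of up to 1.11-fold remains within it.

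The means with siRNA 1423 lay between those with siRNA 1928 and control in 4 of 4 genes. The same order held for 39.5% of all tested genes, and for 57.9% of the genes called with siRNA 1928 against control. For Fos and Jun the order of levels was siRNA 1928, siRNA 1423, control, and for Myc it was the reverse. Neighbouring groups in this order that did not pass the test were siRNA 1423 and control for Jun and Myc, and siRNA 1928 and siRNA 1423 for Egr1. The lower Myc level with siRNA 1928 than with siRNA 1423 rested in part on single libraries and on the scaling. The value was -0.14 without replicate B of siRNA 1928 (adjusted p = 0.0738), -0.18 without replicate A of siRNA 1423 (0.0527), -0.18 without replicate C of siRNA 1423 (0.0528) and -0.13 with library size alone (0.0977). With library size alone the difference for Egr1 was 0.13 and passed the test (adjusted p = 0.00367).

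The members also differed among themselves in how far they moved. The log2 ratio of each pair of genes was taken within each library, where the scaling between libraries cancels, and tested by exact two-sided permutation of 4 against 4 libraries. The smallest p these can give is 0.0286, and p-values were adjusted over 18 tests, 6 pairs in 3 comparisons. All 6 ratios differed between siRNA 1928 and control, and each reached the smallest p (adjusted p = 0.0367). That p means that the 4 and 4 libraries did not overlap, which for single genes was seen in 39.4% of tested genes. Ratios of other gene pairs were not examined, so the counts of ratios have no share over all genes beside them. The 6 ratios come from 4 genes and are not independent. The Fos to Jun ratio was higher with siRNA 1928 by 0.61 on the log2 scale and the Fos to Egr1 ratio by 0.36, so on average Fos rose further than both. For Fos to Egr1 the groups nearly touched, at -3.9112 in replicate D of siRNA 1928 and -3.914 in replicate A of the control. The counting error of Fos, 8.4% per library with siRNA 1928, is larger than that gap. The Jun to Egr1 ratio was lower by 0.25. The Egr1 to Myc ratio was 2.15 ± 0.115 with siRNA 1928 and 1.28 ± 0.153 in the control (SD of the log2 ratio, n = 4 each), higher in each library of siRNA 1928 than in every control library.

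With siRNA 1423 against control, 3 of 6 ratios passed the same exact permutation test (adjusted p = 0.0367), with n = 4 each. That adjusted p depends on how many of the 18 tests reached the smallest p. There were 14, of which 6 were for siRNA 1928 against control and 5 between the siRNAs. An adjustment over the tests of siRNA 1423 against control alone was not run. The Jun to Egr1 ratio was lower by 0.35 on the log2 scale, and the Egr1 to Myc and Jun to Myc ratios were higher by 0.60 and 0.26. Higher without passing were Fos to Myc by 0.55 (exact permutation p = 0.0571) and Fos to Jun by 0.30 (p = 0.114). The Fos to Egr1 ratio was -4.29 ± 0.257 with siRNA 1423 and -4.24 ± 0.240 in the control (SD, n = 4 each), a difference of -0.05 with an exact permutation p of 0.8. Between the siRNAs 5 of 6 ratios passed. The exception was Jun to Egr1, with a difference of 0.10 (siRNA 1928 minus siRNA 1423) and an exact permutation p of 0.171 (n = 4 each). Fos stood 0.41 higher relative to Egr1 with siRNA 1928 than with siRNA 1423, with no overlap between the libraries.

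Over all genes, replicates A and B of each group differed from C and D, with 1115 of 12731 genes passing a term for this division in edgeR. None of the 4 members passed it. Their log2 differences (C and D minus A and B) were -0.12 for Fos, 0.0077 for Jun, -0.04 for Egr1 and 0.10 for Myc, with adjusted p-values of 0.532, 0.923, 0.435 and 0.215, and unadjusted p-values of 0.249, 0.821, 0.17 and 0.0475. Against control, Egr1 was higher with siRNA 1423 by 0.42 within A and B and by 0.50 within C and D. With siRNA 1928 Fos was higher by 0.77 within A and B and by 1.01 within C and D. The rise of Fos with siRNA 1423 was 0.35 within A and B and 0.48 within C and D, and passed the test in neither (adjusted p = 0.254 and 0.0797).

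**Figure D4:**
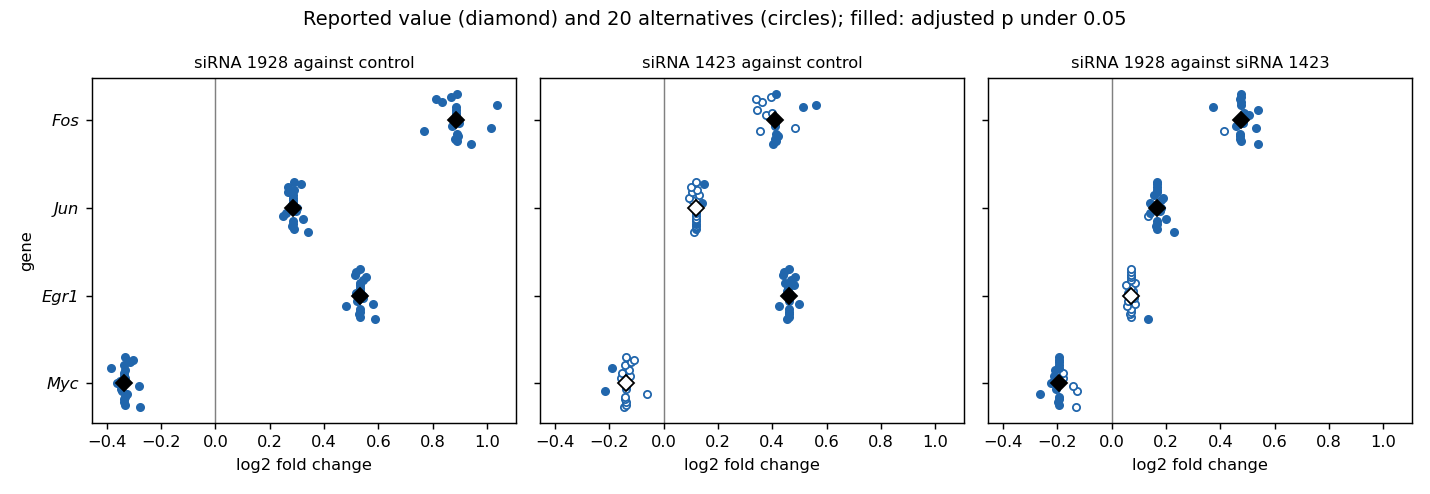
Log2 fold change (horizontal axis) of each gene in the 3 comparisons as reported (diamond) and under 20 alternatives (circles), filled where the adjusted p was under 0.05. All values stay on their side of 0. Filled and open circles mix for Fos, Jun and Myc with siRNA 1423 against control, and for all 4 genes between the siRNAs.

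Genes whose pattern was most like that of a member were found by Pearson r of log2 CPM over the 12 libraries. This is a description, since the libraries fall into 3 groups and share the scaling. Egr1 had the closest neighbour, ENSRNOG00000000635 (r = 0.988), which stood at 106 CPM with siRNA 1928, 102 CPM with siRNA 1423 and 83.3 CPM in the control on average. The nearest to Jun was ENSRNOG00000059799 (r = 0.960), at 27.2, 24.4 and 21.6 CPM in the same order of groups. The nearest to Myc was ENSRNOG00000018590 (r = 0.954), at 54.1 CPM with siRNA 1928, 58.0 CPM with siRNA 1423 and 61.1 CPM in the control. The highest r for Fos was 0.946. The sources used here give no names for these IDs.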

How the data were processed

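Strand-specific RNA libraries of poly(A) RNA were sequenced, per the labels' protocols. The deposited values are expected counts (estimated reads) per Ensembl gene ID, a unit inferred here, since 71.3% of values were whole (tolerance 1e-06) and library totals differed. The submitters' processing notes name DESeq2 1.24.0, fastp 0.21.0, bcl2fastq 2.20 and build mRatBN7.2. Which aligner and counting program were used, and whether counting used strand, is not given in the sources used here. Columns were matched to samples by title, with 0 columns of other samples.

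Expected counts were rounded, filtered with filterByExpr (minimum count 10, minimum total 15) and tested with edgeR 4.0.16 (quasi-likelihood, TMM, 1 mean per group) in R 4.3.3. Intervals are 95% and use standard errors derived from the F statistic. The alternatives were library size alone, DESeq2 size factors, no filter, DESeq2 1.42.0, terms for replicate letter or for A and B against C and D, those pairs of letters alone, and each library left out. Ratios used log2 CPM with a prior count of 2 and scipy 1.17.1. The fits and the permutation test were tested on simulated data. No replicate pairing was used, since the labels do not say that the letters pair the libraries. Of 12 same-letter pairs of libraries from different groups, 5 correlated above 0.1 in their deviations from the group means (r from 0.0296 to 0.1337). Of 36 other-letter pairs, 5 did (r from -0.1691 to 0.1619). Pairing by letter is therefore not excluded.

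The genes were chosen with earlier results of these data known. All 4 genes are described in every comparison. For likeness the rule took the nearest gene of each, with at most 2 higher and 2 lower IDs printed, which left out the one nearest to Fos. Lists of AP-1, immediate early, ERK and SRF, and MYC genes and cell type markers were drawn up by symbol but not used here, since 0 gene IDs matched the GRCr8 reference table.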

Additional observations from a re-analysis of the deposited data

Results flagged for a closer look

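Myc in replicate B of siRNA 1928 lay at 21.1 CPM, far below the other 3 libraries of its group (24.8 to 25.5 CPM). The library is also the shallowest, with 15671546 expected counts and 340 for Myc; the part of depth in this value was not tested. Without it the log2 fold change of Myc with siRNA 1928 was -0.28 against control, still called, and -0.14 against siRNA 1423, no longer called. The search covered 12 groups of 4 values, and chance picks out about 1 in 20 of such groups.

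Changes that differed between the siRNAs were flagged for 3 genes, with log2 differences (siRNA 1928 minus siRNA 1423) of 0.47 for Fos, 0.17 for Jun and -0.19 for Myc by edgeR. Of all tested genes, 44.3% were called in this comparison. The call was lost in 1 of 20 alternatives for Fos, in 1 for Jun and in 5 for Myc.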

How the results depend on the processing

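Of 240 values for the 12 results (4 genes in 3 comparisons) under 20 alternatives, 216 kept direction and side of the threshold, 15 lost the call, 9 gained it and 0 reversed. The alternatives include leaving out a library of the group outside a comparison, which hardly moves the values of that comparison. With library size alone, the differences between the siRNAs were 0.13 for Egr1 (gained) and -0.13 for Myc (lost). Jun with siRNA 1423 gained the call at 0.12 with DESeq2 size factors, with the replicate block (adjusted p = 0.0454) and with the term for A and B against C and D. Within A and B, Fos lost it at 0.35 with siRNA 1423 and at 0.41 between the siRNAs, and 1535 genes were called with siRNA 1423, against 2903. Within C and D, Fos with siRNA 1423 lost it at 0.48, Jun and Myc between the siRNAs at 0.13 and -0.13, and Myc with siRNA 1423 gained it at -0.22, against -0.06 within A and B; these fits have fewer libraries. The cause of the other shifts was not tested. Leaving out 1 library gave, with siRNA 1423, 0.34 to 0.56 for Fos, 0.095 to 0.15 for Jun and -0.19 to -0.11 for Myc, and -0.22 to -0.14 for Myc between the siRNAs. The replicate block changed no call but that of Jun; of 12 libraries, 2 correlated best with their own letter in both other groups. Depth limits Fos most, at 60 to 166 expected counts per library.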
